A study of Mus musculus with 12 samples.

Results

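The 10 genes described here mark T cells and natural killer cells, the lymphocytes that recognise and kill infected or altered cells. They were chosen by gene name: Cd3d, Cd3e, Cd3g and Lck for all T cells, Cd4 and Cd8a for the helper and killer branches, and Nkg7, Gzma, Ncr1 and Klrb1c for natural killer and cytotoxic cells. All 10 were among the 21950 genes of the whole-lung table, and 0 of the 10 were among the 8096 genes of the vesicle table. Sequencing covered RNA of the whole lung of adult C57BL/6 mice, and RNA of extracellular vesicles, the membrane particles that cultured lung mesenchymal cells shed into their medium over 48 hours. Each source gave 2 libraries labelled ColcreER; Tbx4flox/flox and 4 labelled wild type, which makes 12 libraries. CreER is a Cre recombinase that tamoxifen switches on, here with a Col driver, and Tbx4 encodes a T-box factor active in lung mesenchyme. The design text instead names Tbx4creER with floxed Ghr, the growth hormone receptor, so the libraries are called mutant-labelled here. The labels give neither the promoter fragment nor a tamoxifen schedule. The labels also do not say whether each library is a separate mouse, so p-values measure only the spread between libraries.

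The T cell receptor reaches the cell surface only together with the CD3 chains, and Cd3d, Cd3e and Cd3g encode its delta, epsilon and gamma chains. The kinase Lck, carried by the coreceptors CD4 and CD8, phosphorylates those chains when the receptor binds antigen. CD4 binds class II and CD8 class I major histocompatibility molecules, which divides helper from killer T cells. Natural killer cells carry no CD3-bound receptor. They use germline-encoded receptors such as NKp46, the product of Ncr1, and the C-type lectin of Klrb1c, by which these cells are recognised in C57BL/6 mice. Granzyme A (Gzma) is a protease of their cytotoxic granules, and Nkg7 is a membrane protein of the same granules that killer T cells share. The lung holds many natural killer cells, largely within its blood vessels.

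Each lung library had between 42.7 and 44.8 M reads (megareads) in genes, as worked out from the values. Levels are in RPKM, which divides reads by exon length in kilobases and by the M reads counted in genes, so that levels of different genes can be compared. The 10 genes rested on 80 to 1821 reads per library. Tbx4 was 20.9 and 36.7 RPKM in mutant-labelled lungs 1 and 2 and 26.1 to 30.1 RPKM in wild type, and Ghr was 9.83 and 12.9 against 11.8 to 13.3 RPKM. Neither candidate target gene therefore separated the groups. The Y-linked gene Ddx3y stood at 20.6 and 19.9 RPKM in wild-type lungs 1 and 2 and at no more than 0.0369 RPKM in the other 4 lungs, so the sexes were unequally spread over the groups.

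In these lungs the T cell genes and the natural killer genes followed different patterns, and neither pattern followed the genotype labels. The 4 T cell genes and both coreceptors stood highest in mutant-labelled lung 2, while the 4 natural killer and cytotoxic genes stood highest in wild-type lung 1. Mutant-labelled lung 1 and wild-type lung 3 were the lowest pair for 8 of the 10 genes, including all 4 natural killer genes. Of all 13701 genes tested, 11.9% had that pair lowest. No member separated the groups: the ranges of mutant-labelled and wild-type lungs overlapped in all 10, so 0 were without overlap, against 11.6% of all genes tested. The log2 difference, mutant-labelled minus wild type, was above 0 in 6 members, the T cell genes and coreceptors, against 55.7% of all genes. By limma-trend on log2(RPKM + 1), with Benjamini-Hochberg adjustment over all genes tested and a threshold of 0.05, 0 of the 10 passed (adjusted p from 0.9936 to 0.9999). Over all genes 0% passed as well, with a smallest adjusted p of 0.364. At an unadjusted p under 0.05 the same test took 1 member, Cd4, against 3.75% of all genes. The SE of the members' log2 differences ran from 0.19 to 0.48, beside a median of 0.09 over all genes tested.

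**Figure D1:**
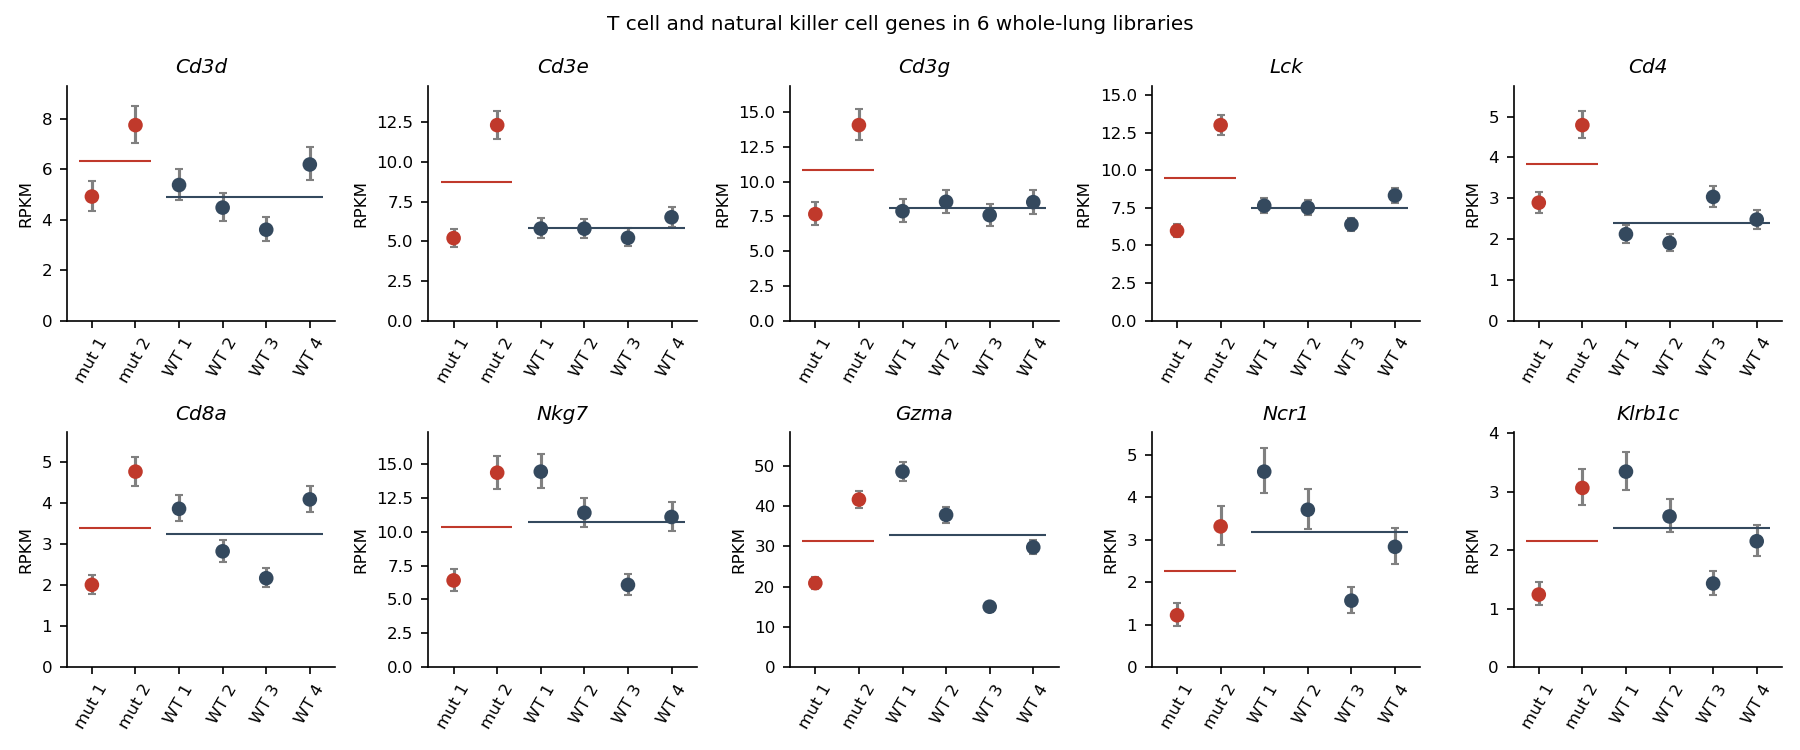
RPKM of each of the 10 genes (vertical axes, each from 0) in the 2 mutant-labelled lungs (red, mut) and 4 wild-type lungs (dark, WT). Bars are 95% exact Poisson intervals of the reads and horizontal lines are group means. Mutant-labelled lung 2 is above every wild-type lung for the first 6 genes, and mutant-labelled lung 1 with wild-type lung 3 is low for the last 4.

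In wild-type lungs Gzma had by far the highest level, at 32.8 ± 14.1 RPKM (SD, n = 4). It was followed by Nkg7 at 10.7 ± 3.46, Cd3g at 8.14 ± 0.481, Lck at 7.47 ± 0.799, Cd3e at 5.84 ± 0.531 and Cd3d at 4.92 ± 1.12 RPKM. Cd8a (3.24 ± 0.900), Ncr1 (3.18 ± 1.30), Cd4 (2.38 ± 0.493) and Klrb1c (2.38 ± 0.800 RPKM) were lowest. The ranges of neighbours in this order were separate only for Gzma and Nkg7. Cd3g exceeded Lck, Lck exceeded Cd3e, Cd3e exceeded Cd3d and Cd3d exceeded Cd8a in 4 of 4 wild-type lungs although their ranges overlapped. Cd8a and Ncr1 changed places, as did Cd4 and Klrb1c, each order being found in 2 of 4 lungs. The spread also differed: the highest wild-type lung was 1.13 times the lowest for Cd3g, 1.25 times for Cd3e and 1.30 times for Lck, but 1.59 times for Cd4, 1.72 times for Cd3d and 1.89 times for Cd8a. It was 3.23 times the lowest for Gzma, 2.94 times for Ncr1, 2.38 times for Nkg7 and 2.34 times for Klrb1c.

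The CD3 chains and Lck stood apart in a single library. Cd3e (ENSMUSG00000032093, mm9 chromosome 9, 44806826 to 44817673, minus strand, protein-coding) measured 5.21 and 12.3 RPKM in mutant-labelled lungs 1 and 2. In wild-type lungs 1 to 4 it stood at 5.81, 5.80, 5.22 and 6.52 RPKM. Mutant-labelled lung 2 was thus 1.89 times the highest wild-type lung, and mutant-labelled lung 1 lay just below the lowest. The means were 8.77 ± 5.03 (SD, n = 2) and 5.84 ± 0.531 RPKM (n = 4). On the log2(RPKM + 1) scale they differed by 0.41 with an SE of 0.28 and a 95% interval from -0.26 to 1.09 (limma adjusted p = 0.994). Leaving out mutant-labelled lung 1 gave 0.97 (limma adjusted p = 0.192), and leaving out lung 2 gave -0.14. The interval of the full comparison therefore spans a fall as well as a rise, and 1 library sets its sign.

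Cd3g lies on chromosome 9 at 44777655 to 44788514 (ENSMUSG00000002033), and its start is 1362 bases from that of Cd3d, which is read in the opposite direction. It measured 7.67 and 14.1 RPKM in the mutant-labelled pair against 7.88, 8.56, 7.59 and 8.53 RPKM in wild-type lungs. The 5 libraries other than mutant-labelled lung 2 were within 1 RPKM of each other, and that library stood 1.64 times above the highest wild-type lung. The log2 difference was 0.32 (SE 0.21, with a 95% interval, as in later brackets, from -0.17 to 0.82). Cd3d (ENSMUSG00000032094, 44789876 to 44795135) stood at 4.92 and 7.76 RPKM against 5.38, 4.49, 3.61 and 6.20 RPKM. Here mutant-labelled lung 1 lay inside the wild-type range and mutant-labelled lung 2 exceeded its top by 1.25 times. The log2 difference was 0.30 (SE 0.22, from -0.23 to 0.84). All 3 genes lie within 40019 bases.

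Lck (ENSMUSG00000000409, chromosome 4, 129225588 to 129250885) measured 5.97 and 13.0 RPKM in the mutant-labelled pair. In wild type the values were 7.64, 7.51, 6.39 and 8.32 RPKM, so the mutant-labelled pair fell on either side of all 4. The log2 difference was 0.23 (SE 0.26, from -0.41 to 0.86). Leaving out mutant-labelled lung 1 gave 0.73, and leaving out lung 2 gave -0.27. In a bulk tissue a change in the number of cells of a type and a change in RNA per cell cannot be told apart.

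**Figure D2:**
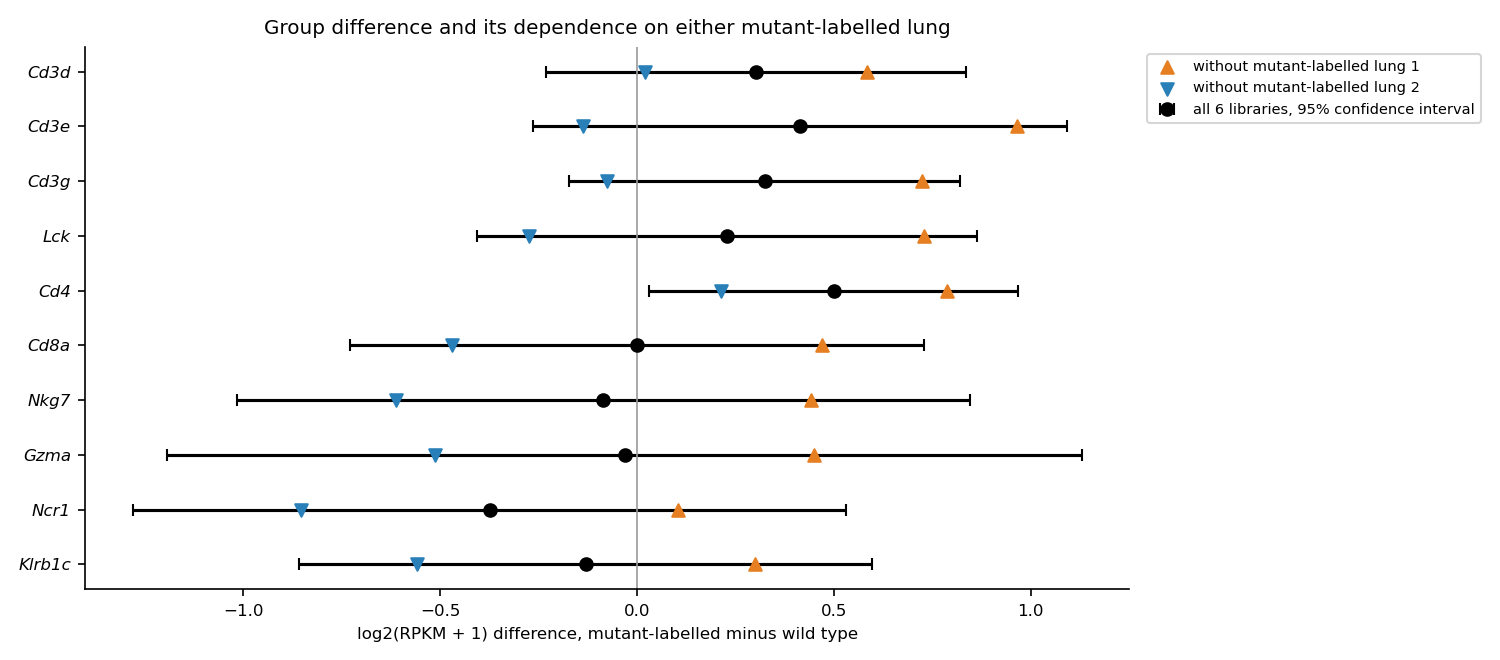
Log2(RPKM + 1) difference, mutant-labelled minus wild type (horizontal axis), for each of the 10 genes. Black points with bars are the comparison of all 6 lungs with 95% confidence intervals, and triangles are the same difference after leaving out mutant-labelled lung 1 (up) or lung 2 (down). The triangles lie on opposite sides of 0 for 8 genes, with Cd3d and Cd4 as the exceptions.

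The coreceptors divided. Cd4 (ENSMUSG00000023274, chromosome 6, 124814710 to 124838239) was 2.89 and 4.79 RPKM in the mutant-labelled pair and 2.12, 1.91, 3.03 and 2.48 RPKM in wild-type lungs. Only wild-type lung 3 exceeded mutant-labelled lung 1, which makes Cd4 the member closest to a separation by label. Its difference, 0.50 (SE 0.19, from 0.03 to 0.97) had the smallest p of the 10 and did not pass (limma adjusted p = 0.994). Leaving out mutant-labelled lung 1 gave 0.79, leaving out lung 2 gave 0.21, and Ddx3y as a covariate gave 0.35. Cd8a (ENSMUSG00000053977, chromosome 6, 71323421 to 71329165) stood at 2.01 and 4.77 RPKM against 3.86, 2.83, 2.17 and 4.09 RPKM. Its means did not separate at all, with a difference of 0.00 (SE 0.30, from -0.73 to 0.73). Cd8b1, which encodes the partner chain of CD8 and is no member, stood at 4.18 and 9.06 against 6.11, 5.55, 3.70 and 7.49 RPKM. For both CD8 chains mutant-labelled lung 1 and wild-type lung 3 were the lowest pair and mutant-labelled lung 2 the highest.

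The highest ratio of Cd4 to Cd8a in a library was 2.62 times the lowest. It was 1.44 and 1.005 in mutant-labelled lungs 1 and 2, and 0.549, 0.674, 1.40 and 0.605 in wild-type lungs 1 to 4. Wild-type lung 3 thus had over double the value of the other wild-type lungs and was close to mutant-labelled lung 1. Among the CD3 chains and Lck, the ratio of Lck to Cd3e ran from 1.055 to 1.32, that of Cd3g to Cd3e from 1.14 to 1.48 and that of Cd3d to Cd3e from 0.629 to 0.950. The highest was 1.25, 1.29 and 1.51 times the lowest. Lck to Cd3e was below every wild-type lung in both mutant-labelled lungs. Some dendritic cells also carry Cd4, and the summed level of 7 dendritic cell markers was 54.5 and 42.5 RPKM in the mutant-labelled pair against 40.9, 46.0, 70.0 and 42.8 RPKM. Mutant-labelled lung 1 and wild-type lung 3 had the highest sums there too, and 4 of the 7 markers (Itgax, Ccl17, Flt3 and Xcr1) had them as the highest pair. Siglech was instead lowest in that pair, and Clec9a was lowest in mutant-labelled lung 1. The part of those cells in the ratio was not tested.

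The natural killer genes were low in a pair of lungs that crossed the labels. Ncr1 (ENSMUSG00000062524, chromosome 7, 4289326 to 4296766) measured 1.22 and 3.32 RPKM in the mutant-labelled pair. In wild-type lungs it stood at 4.61, 3.71, 1.57 and 2.84 RPKM. Wild-type lung 3 lay beside mutant-labelled lung 1, and mutant-labelled lung 2 lay in the middle of the other wild-type lungs. The log2 difference was -0.37 (SE 0.38, from -1.28 to 0.53, limma adjusted p = 0.994). Dropping mutant-labelled lung 1 gave 0.10, dropping lung 2 gave -0.85, and Ddx3y as a covariate gave -0.02. The mutant-labelled pair differed by more than counting error, since 80 reads in mutant-labelled lung 1 gave a 95% exact Poisson interval of 0.97 to 1.52 RPKM, and 214 reads in mutant-labelled lung 2 gave 2.89 to 3.79 RPKM.

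Gzma (ENSMUSG00000023132, chromosome 13, 113884033 to 113891187) measured 20.9 and 41.6 RPKM in the mutant-labelled pair against 48.6, 37.8, 15.02 and 29.8 RPKM. Wild-type lung 3 was the lowest of all and wild-type lung 1 the highest, so both mutant-labelled lungs lay inside the wild-type range. The log2 difference was -0.03 (SE 0.48, from -1.19 to 1.13), the widest interval of the 10. Nkg7 (ENSMUSG00000004612, chromosome 7, 50692443 to 50693616) stood at 6.40 and 14.4 RPKM against 14.4, 11.4, 6.08 and 11.1 RPKM. Its mutant-labelled values likewise lay inside the wild-type range, and the difference was -0.09 (SE 0.39, from -1.02 to 0.85). Klrb1c (ENSMUSG00000030325, chromosome 6, 128728503 to 128739233) stood at 1.24 and 3.07 RPKM against 3.35, 2.58, 1.43 and 2.16 RPKM, and the groups differed by -0.13 (SE 0.30, from -0.86 to 0.60). Its close relatives can share reads with it, but Klrb1b did not follow it, at 5.94 and 5.20 against 4.57, 4.45, 5.84 and 4.87 RPKM. Klrb1a and Klrb1f stayed under 1 RPKM in every lung.

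Set against Cd3e in the same library, the natural killer genes gave a different order of lungs. The ratio of Ncr1 to Cd3e was 0.235 and 0.269 in mutant-labelled lungs and 0.793, 0.640, 0.300 and 0.435 in wild-type lungs. Both mutant-labelled lungs lay below all wild-type lungs, since mutant-labelled lung 2 combined a mid-range Ncr1 with the highest Cd3e. Klrb1c to Cd3e did the same, at 0.239 and 0.249 against 0.576, 0.445, 0.274 and 0.331. Gzma to Cd3e behaved otherwise, at 4.01 and 3.38 against 8.37, 6.52, 2.88 and 4.57, with wild-type lung 3 the lowest. Nkg7 to Cd3e overlapped too, at 1.23 and 1.165 against 1.163 to 2.485. Set against Ncr1, Gzma, Nkg7 and Klrb1c were each above every wild-type lung in both mutant-labelled lungs. Gzma to Ncr1 was 17.07 and 12.56 against 9.58 to 10.55. Nkg7 to Ncr1 was 5.24 and 4.33 against 3.07 to 3.91. Klrb1c to Ncr1 separated only narrowly, at 1.016 and 0.9249 against 0.6955 to 0.9136. These ratios share Ncr1, the member with the fewest reads, so they are not separate results. How often ratios of other gene pairs separate these groups was not counted. Over the 4 natural killer and 4 T cell members, the mean log2(RPKM + 1) of the first minus that of the second was -0.36 and -0.27 in mutant-labelled lungs. In wild-type lungs it was 0.62, 0.35, -0.34 and -0.02, so the groups overlapped through wild-type lung 3.

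**Figure D3:**
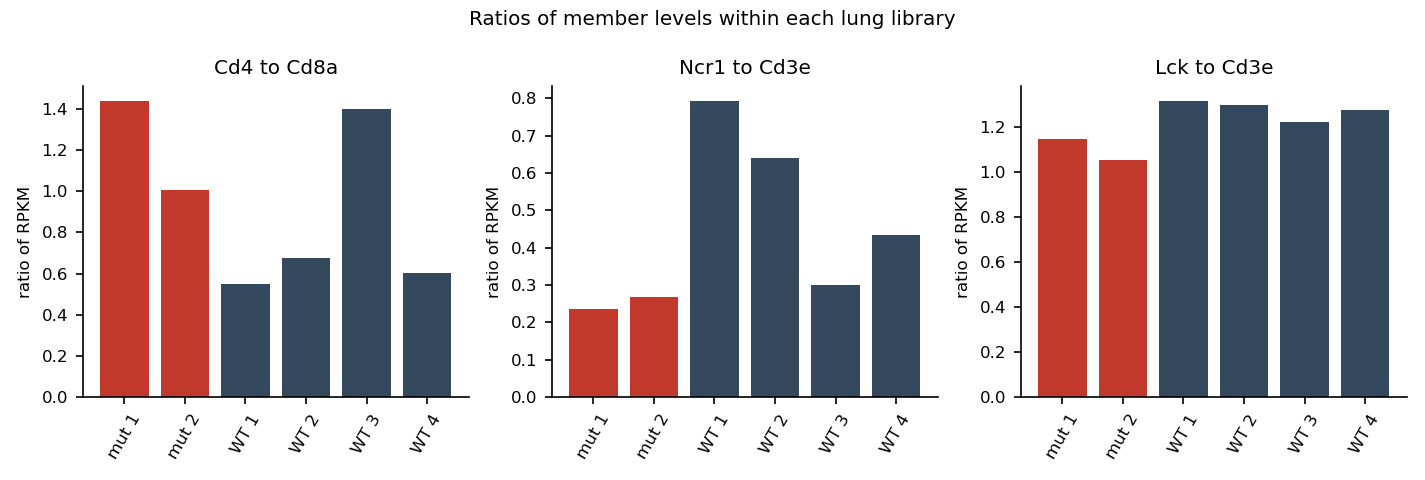
Ratios of RPKM within each lung library (vertical axes from 0) for Cd4 to Cd8a, Ncr1 to Cd3e and Lck to Cd3e, in mutant-labelled (red, mut) and wild-type (dark, WT) lungs. Cd4 to Cd8a is high in mutant-labelled lung 1 and wild-type lung 3, and Ncr1 to Cd3e is highest in wild-type lung 1, while Lck to Cd3e stays between 1.055 and 1.32.

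The 2 mutant-labelled lungs differed from each other in every member. All 10 were at least 1.5 times as high in lung 2 as in lung 1, a fold chosen after the values were seen, with ratios from 1.58 for Cd3d to 2.71 for Ncr1. Of all genes tested, 6.68% reached that fold between these lungs. The 95% counting intervals of the pair were separate for all 10. The leukocyte antigen Ptprc stood at 6.61 and 12.5 RPKM in them against 7.76 to 8.50 RPKM in wild-type lungs, in the same order. Mutant-labelled lung 2 exceeded every wild-type lung in 6 members, as it did in 32.3% of all genes tested. Mutant-labelled lung 1 was below every wild-type lung in 5 members (Cd3e, Lck, Cd8a, Ncr1 and Klrb1c), as in 30.7% of all genes.

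The promoters of the members are shown because the CD3 and Lck group and the natural killer group moved apart. RefSeq windows of GRCm38.p6, a later build than the mm9 of the expression values, run from 250 bases before to 50 after each start. They were at hand for 9 of the 10 genes, in 11 windows. Each was searched on both strands for AGGAAG, a core of ETS factor sites, TGTGGT, a core of RUNX sites, and GGTGTGA, a T-box core. Overlapping matches were each counted. Capitals mark every match on either strand. The windows of Cd3e (chr9:45009562-45009861, minus strand), Nkg7 (chr7:43436888-43437187, plus strand), Gzma (chr13:113100932-113101231, minus strand) and the first of Ncr1 (chr7:4337465-4337764, plus strand) read 5′ to 3′:
Cd3e: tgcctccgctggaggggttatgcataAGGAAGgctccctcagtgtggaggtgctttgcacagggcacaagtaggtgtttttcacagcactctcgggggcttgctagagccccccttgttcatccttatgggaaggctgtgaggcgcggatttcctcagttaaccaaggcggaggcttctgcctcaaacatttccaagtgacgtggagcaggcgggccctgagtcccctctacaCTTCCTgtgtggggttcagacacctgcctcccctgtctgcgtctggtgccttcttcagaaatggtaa
Nkg7: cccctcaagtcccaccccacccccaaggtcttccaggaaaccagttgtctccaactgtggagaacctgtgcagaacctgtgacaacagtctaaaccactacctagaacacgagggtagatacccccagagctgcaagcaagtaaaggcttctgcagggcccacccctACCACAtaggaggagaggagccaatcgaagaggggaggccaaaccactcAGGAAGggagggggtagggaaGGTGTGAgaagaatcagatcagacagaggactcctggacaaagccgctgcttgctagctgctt
Gzma: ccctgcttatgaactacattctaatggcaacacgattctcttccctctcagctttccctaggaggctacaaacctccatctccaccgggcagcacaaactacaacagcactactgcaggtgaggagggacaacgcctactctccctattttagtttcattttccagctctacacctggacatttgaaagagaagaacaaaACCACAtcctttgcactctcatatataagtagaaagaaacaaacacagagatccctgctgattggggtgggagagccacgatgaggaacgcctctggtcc
Ncr1: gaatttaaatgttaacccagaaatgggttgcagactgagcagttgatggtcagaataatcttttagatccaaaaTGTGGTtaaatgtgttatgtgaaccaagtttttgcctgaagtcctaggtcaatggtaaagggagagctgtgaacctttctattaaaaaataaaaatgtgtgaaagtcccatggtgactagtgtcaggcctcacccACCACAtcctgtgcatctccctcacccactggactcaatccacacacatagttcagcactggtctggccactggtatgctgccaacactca
The RUNX core was found in windows of 5 of the 9 genes, Nkg7, Gzma, Ncr1, Klrb1c and Lck, and in 16.8% of all 32851 windows. None of the windows of Cd3d, Cd3e, Cd3g and Cd8a held it. The ETS core was found for Cd3d, Cd3e, Lck, Nkg7 and Klrb1c, also 5 genes, and in 35.4% of all windows. The T-box core was found in 1 member window, that of Nkg7, and in 3.98% of all windows. A match describes the letters only.

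Other markers of the same cells shared some of these patterns. Of 10 T cell markers that are no members, 9 were highest in mutant-labelled lung 2, with Zap70 as the exception. Only 2 of them, Cd8b1 and Cd2, had mutant-labelled lung 1 and wild-type lung 3 as the lowest pair, as Cd3e, Cd3g, Lck and Cd8a did. Cd5, a brake on T cell receptor signalling, stood at 2.42 and 5.25 RPKM against 2.33, 1.62, 2.05 and 2.71 RPKM, a difference of 0.55 (SE 0.25). Of 6 natural killer markers that are no members, 6 had mutant-labelled lung 1 and wild-type lung 3 as the lowest pair, against the 11.9% of all genes given above. Granzyme B (Gzmb) stood at 2.58 and 6.85 against 7.66, 5.31, 2.72 and 4.76 RPKM. The pore-forming perforin (Prf1) stood at 2.16 and 5.46 against 4.09, 3.56, 1.99 and 3.40 RPKM, and unlike the others it was highest in mutant-labelled lung 2. Eomes, a T-box transcription factor of natural killer cells, stood at 0.616 and 1.18 against 1.29, 1.23, 0.704 and 0.981 RPKM. By limma 0 of these 16 genes passed. In the wider list of natural killer receptors below, 8 of 21 genes tested had mutant-labelled lung 1 and wild-type lung 3 lowest.

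**Figure D4:**
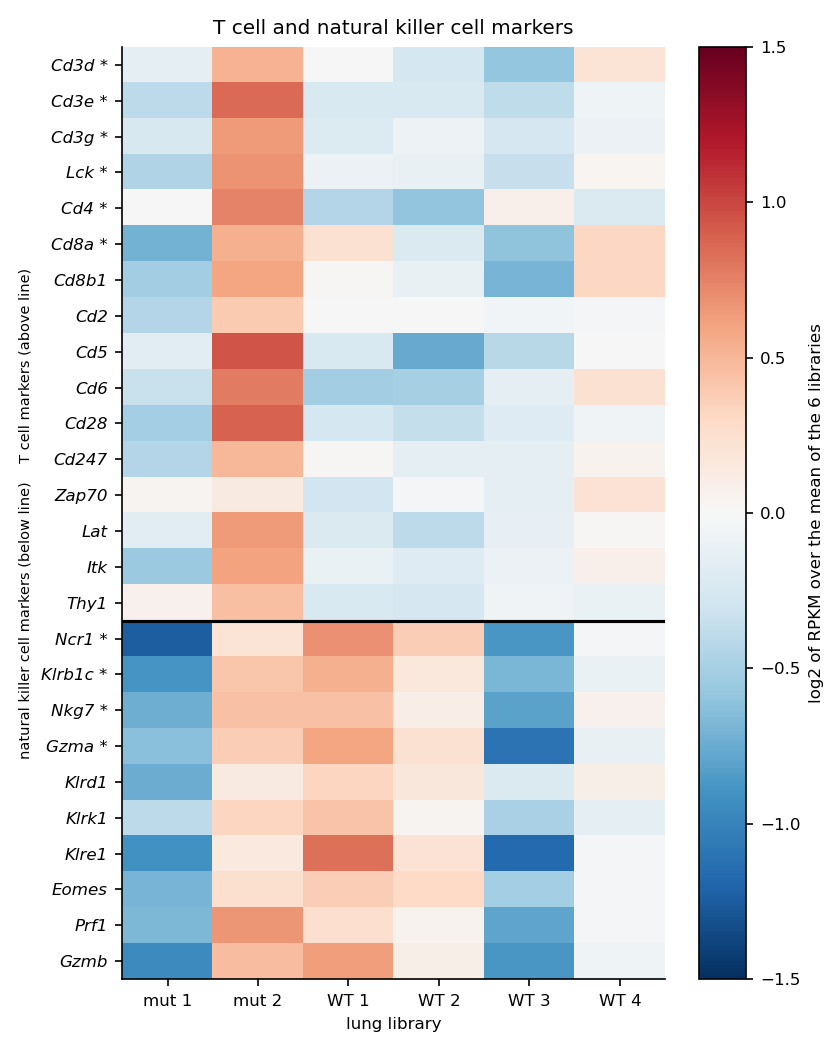
Log2 of RPKM over the mean of the 6 lungs (colour, red high and blue low) for 16 T cell markers above the line and 10 natural killer cell markers below it, by lung library. Stars mark members. Mutant-labelled lung 2 is the reddest column for 15 T cell markers, and mutant-labelled lung 1 and wild-type lung 3 are the bluest columns for all 10 natural killer markers.

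Markers of some other cells moved with parts of these patterns, while neutrophil markers differed by label. The summed level of the 9 macrophage and monocyte markers listed was 741.4 and 262.6 RPKM in the mutant-labelled pair and 189.7, 205.6, 880.7 and 182.6 RPKM in wild-type lungs. The 2 lungs with the lowest natural killer genes thus had the highest macrophage sum. Of the 9 markers 4 (Chil3, Cd68, Mrc1 and Marco) had these lungs as the highest pair. Csf1r, Ccr2 and Fcgr1 were highest in mutant-labelled lung 2, and the monocyte gene Ly6c2 was 20.97 and 19.8 RPKM in the pair against 20.2 to 32.1 RPKM in the other lungs. The largest term of the sum was Chil3, a chitinase-like protein of alveolar macrophages, at 609.8 and 145.4 against 96.4, 108.2, 740.5 and 97.5 RPKM. The 8 B cell markers summed to 69.8 and 160.3 RPKM against 112.5 to 166.3, lowest in mutant-labelled lung 1. The 8 neutrophil markers summed to 413.9 and 834.0 RPKM against 109.0 to 214.1, with the neutrophil antigen Ly6g at 2.14 and 3.74 against 0.220 to 0.403 RPKM. Of these 8 markers 7 were without overlap, mutant-labelled higher, against 7.5% of all genes tested, and by limma 0 passed. The erythroid sum, a measure of blood, was 293.8 and 855.8 RPKM against 151.4, 198.0, 881.5 and 281.2, and was thus as high in wild-type lung 3 as in mutant-labelled lung 2. Hba-a1, an alpha globin gene, stood at 157 and 450 against 82.1 to 467 RPKM. No marker of these lists was at 0 in every lung, and the part of these cells in the lymphocyte values was not tested.

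**Figure D5:**
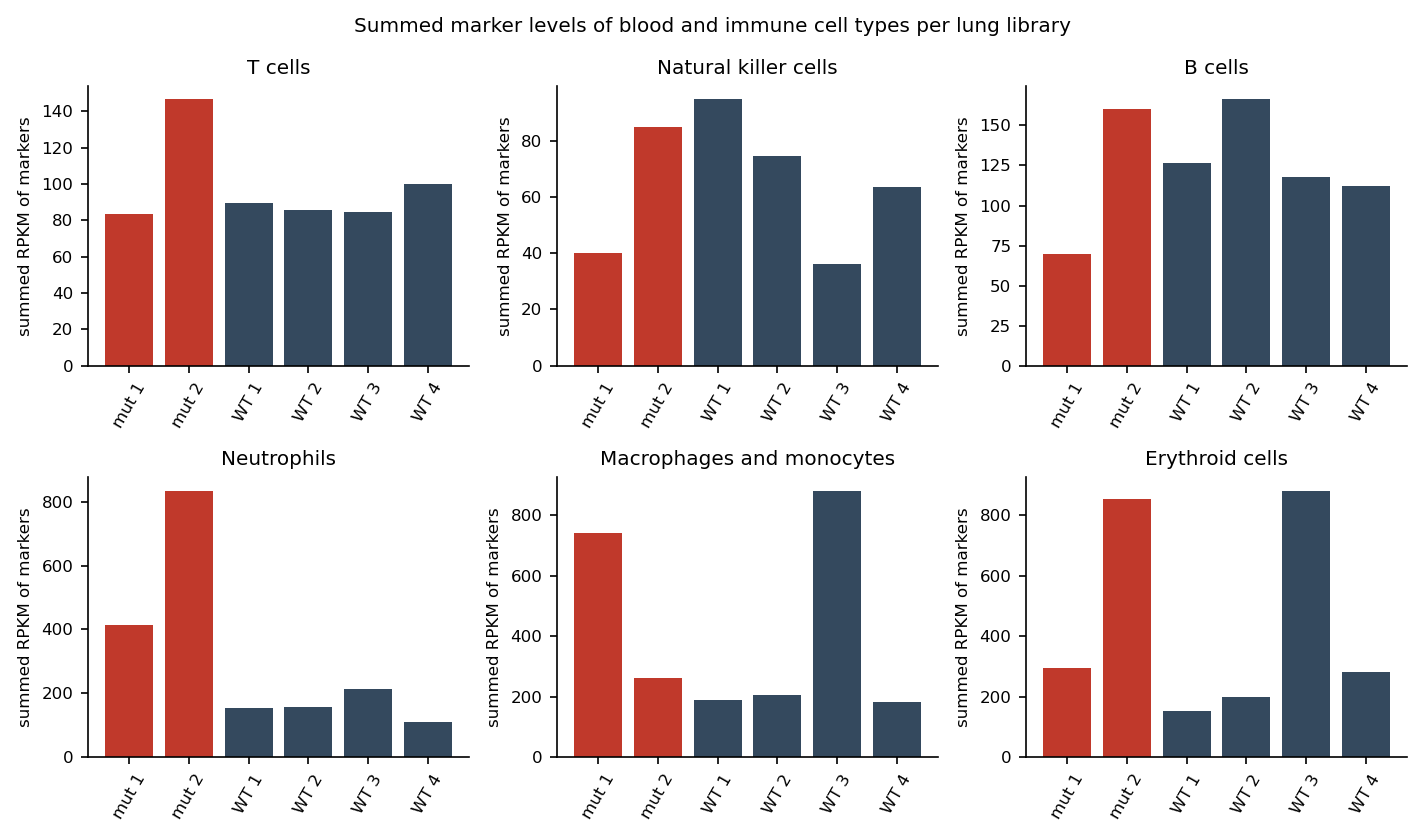
Summed RPKM of the markers of T cells, natural killer cells, B cells, neutrophils, macrophages and monocytes, and erythroid cells (vertical axes from 0) in each lung library, mutant-labelled in red (mut) and wild type dark (WT). The natural killer sum is lowest, and the macrophage sum highest, in mutant-labelled lung 1 (40.1 and 741.4) and wild-type lung 3 (36.0 and 880.7).

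The wider pathway was read from 6 lists holding 125 genes, all of them in the lung table, of which 95 had at least 1 RPKM in at least 2 lungs and were tested. By limma 0 passed in either direction, and 9 had an unadjusted p under 0.05, where 3.75% of all genes did. Their median log2 difference was 0.07, beside 0.01 for all genes tested. Among genes of T cell receptor signalling and the T cell surface, 22 of 28 were tested and 16 differed by more than 0, at a median of 0.10. Thy1, a surface glycoprotein of T cells that fibroblasts also carry, stood at 19.7 and 25.9 RPKM against 16.2, 15.9, 18.2 and 17.6 RPKM. Its groups did not overlap, which held for 7.5% of all genes in that direction, and the difference of 0.40 (SE 0.12) did not pass (limma adjusted p = 0.994). The adaptor Lcp2, shared with myeloid cells, stood at 4.37 and 5.07 against 3.25 to 4.14 RPKM, likewise without overlap. The adhesion receptor Cd2 (9.56 and 16.9 against 12.6 to 13.0 RPKM), the kinase Fyn (12.8 and 18.4 against 14.9 to 16.9) and the CD45-binding Ptprcap (10.2 and 19.6 against 13.3 to 17.4) had mutant-labelled lungs on either side of all wild-type lungs.

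Natural killer receptors had 21 of 26 genes tested, with 9 differences above 0 and a median of -0.06. Mutant-labelled lung 1 and wild-type lung 3 were the lowest pair for 8 of the 21, against 11.9% of all genes. The most abundant genes of the list were the signalling adaptors Tyrobp, Fcer1g and Hcst, which myeloid cells also use. These adaptors did not follow the natural killer members. Tyrobp stood at 80.9 and 81.0 RPKM against 55.1, 52.6, 79.1 and 51.7 RPKM. Fcer1g stood at 44.8 and 48.9 against 32.4, 33.1, 42.5 and 28.7 RPKM. These adaptors were therefore high in wild-type lung 3, where the natural killer members were low. Hcst stood at 6.64 and 8.59 against 5.21 to 6.33 RPKM. All 3 adaptors were without overlap, mutant-labelled higher, as were 7.5% of all genes, and none passed (limma adjusted p = 0.994 for each). The receptor chain Klrd1 (CD94) stood at 3.66 and 6.73 against 7.63, 6.90, 5.26 and 6.51 RPKM, low in the same pair of lungs as Ncr1.

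The cytotoxic granule and effector list had 12 of 17 genes tested, 7 of them above 0, with a median of 0.06. The chemokine Ccl5, made by killer T cells and natural killer cells, stood at 17.9 and 29.6 RPKM against 34.2, 25.6, 17.1 and 27.2 RPKM, with the same low pair as Gzma. The granule proteoglycan Srgn (35.8 and 54.0 against 39.6 to 44.0), the granzyme B inhibitor Serpinb9 (32.0 and 32.8 against 31.6 to 37.6) and the vesicle GTPase Rab27a (22.7 and 21.4 against 19.2 to 24.7 RPKM) did not have that pair lowest. The chemokine Ccl4 stood at 2.70 and 1.61 against 0.529 to 1.69 RPKM.

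Transcription factors of T and innate lymphoid cells had 16 of 18 genes tested, 10 of them above 0, with a median of 0.04. Tcf7, a factor of resting T cells, stood at 11.2 and 29.2 RPKM against 16.7, 13.7, 15.2 and 17.0 RPKM, so that the mutant-labelled lungs enclosed all wild-type lungs as for Lck. Ets1 did the same (26.0 and 50.7 against 33.2 to 37.1 RPKM). Gata3, a factor of type 2 helper cells and innate lymphoid cells, stood at 3.75 and 4.78 against 2.86 to 3.59 RPKM, without overlap and with a difference of 0.28 (SE 0.11). Nfil3, which natural killer cells need to develop, stood at 3.08 and 3.75 against 3.84 to 4.30 RPKM, a separation found in that direction in 4.12% of all genes. Id2 stood at 77.8 and 58.3 against 54.8 to 71.8 RPKM, and Zbtb7b, the factor of the CD4 branch, at 9.93 and 10.4 against 9.17 to 10.4 RPKM.

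The list of homing, homeostasis and checkpoint genes had 16 of 20 tested, 12 of them above 0, with a median of 0.21. The chemokine receptor Ccr7, which guides resting T cells to lymph nodes, had the Lck pattern, at 7.73 and 19.8 RPKM against 9.41, 10.8, 10.2 and 10.4 RPKM. The sphingosine phosphate receptor S1pr1, which endothelium also carries, stood at 66.2 and 109.0 against 87.3 to 90.9 RPKM. The integrin Itgal stood at 9.64 and 15.2 against 8.80 to 9.81 RPKM. Cx3cr1, a fractalkine receptor of monocytes and cytotoxic lymphocytes, stood at 10.4 and 8.77 against 7.14 to 8.12 RPKM, and the checkpoint receptor Tigit at 2.71 and 2.53 against 2.98 to 3.38 RPKM. These 2 genes had groups without overlap in opposite directions, with differences of 0.29 (SE 0.09) and -0.22 (SE 0.07). Neither passed (limma adjusted p = 0.994 for both). Tnfrsf18 was also without overlap, at 5.93 and 4.94 against 4.131 to 4.725 RPKM. The list thus had 2 genes without overlap with mutant-labelled higher and 1 lower, where all genes tested had 7.5% and 4.12%.

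Of 16 cytokine and innate lymphoid type 2 genes, 8 were tested, 4 of them above 0, with a median of 0.04. Lymphotoxin beta (Ltb) stood at 17.4 and 32.2 RPKM against 21.7 to 28.4 RPKM, enclosing the wild-type lungs. The growth factor Areg stood at 5.12 and 1.52 against 0.974 to 2.10 RPKM, Csf2 at 3.54 and 1.33 against 0.990 to 3.07, Tnf at 1.32 and 0.749 against 0.455 to 1.03, and Icosl at 10.02 and 11.1 against 9.87 to 13.8 RPKM. Each of these 4 had its groups overlapping.

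The genes whose profile over the 6 lungs lay nearest to the members were ranked among 13484 genes with a mean log2(RPKM + 1) of at least 1. The measure was the Euclidean distance between profiles scaled to mean 0 and SD 1, where 0 is an identical shape. Nearest to the mean of the 4 T cell members were Dapl1 (0.28), Tet3 (0.29), Adgre4 (0.38), Xkrx (0.48), Nup107 (0.49), Kif26b (0.50), Sstr2 (0.53) and Rcl1 (0.55). Dapl1 stood at 1.38 and 3.55 RPKM against 1.76, 1.53, 1.15 and 1.99 RPKM. Among the members themselves Cd3e (0.33), Lck (0.44) and Cd3g (0.56) lay close, Cd3d farther (1.08), and Cd8a (1.47) and Cd4 (1.91) farther still. Cd3d, Cd3e, Cd3g and Lck are part of that mean, which shortens their distances, while Cd8a and Cd4 are not. Nearest to the mean of the 4 natural killer members were Bcl2l2 (0.14), Cox4i2 (0.27), Polr2m (0.30), Chst1 (0.31), Gzmb (0.32), Ogfr (0.37), Bod1l (0.42) and Tinf2 (0.43). Only Gzmb among these 8 is in the natural killer lists. Cox4i2 stood at 40.1 and 62.2 against 65.3, 59.4, 41.9 and 54.5 RPKM. Cd4 lay farthest from the natural killer profile of all members (3.66).

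In the vesicles none of the members was listed, so no level is given for them there, and whether an unlisted gene lay below a limit is unknown. The smallest value of the larger group mean among listed genes was 2.003 RPKM. The vesicle libraries were shallower, with 1.75 and 1.68 M reads in mutant-labelled and 4.2 to 5.41 M in wild-type libraries. All 4 fibroblast markers were listed, and 0 of the 10 natural killer and 2 of the 16 T cell markers, Cd28 and Thy1. Of the 125 pathway genes 20 were listed and 14 tested. By limma 0 of them passed, as did 0% of all 7615 genes tested there, and 3 had an unadjusted p under 0.05, against 10.3% of all.

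Cd28, a costimulatory receptor of T cells, stood at 14.5 and 4.48 RPKM in mutant-labelled vesicles against 0, 0.666, 1.09 and 0.0302 RPKM in wild-type vesicles. These values came from 155 and 46 reads against 0, 19, 28 and 1. The groups did not overlap, as for 9.88% of all genes in that direction (9.94% in the other), and a difference of 2.74 with an SE of 0.94 did not pass (limma adjusted p = 0.455). In lung Cd28 stood at 0.728 and 1.92 against 0.808 to 1.0 RPKM. The lysosomal trafficking gene Lyst stood at 11.6 and 5.05 against 0.246, 2.38, 0.464 and 0.282 RPKM, and the receptor gene Klra4 at 0 and 1.92 against 27.8, 1.72, 5.16 and 46.2 RPKM. Klra4 belongs to the Ly49 family of near-identical genes, so its reads are uncertain, and its groups overlapped. The 4 macrophage markers listed in the vesicles summed to 296.3 and 241.7 RPKM against 0.315, 135.2, 123.4 and 10.4 RPKM. Most of the mutant-labelled sums was Cd68, at 275.3 and 203.1 against 0.178 to 105.4 RPKM, without overlap. Mrc1, Adgre1 and Csf1r had overlapping groups. Csf1r was highest in wild-type vesicles 2, at 5.04 and 6.72 against 0.137, 15.45, 10.58 and 0 RPKM. Tyrobp stood at 37.6 and 47.6 against 0.328 to 34.6 RPKM, without overlap. Fcer1g overlapped, at 211.8 and 253.2 against 0 to 232.1 RPKM. The part of macrophages in these values was not tested. Thy1 stood at 13.5 and 11 against 18.9, 50.3, 16.3 and 45.1 RPKM, a difference of -1.19 (SE 0.72) against 0.40 in lung. The difference between vesicles and lung was not tested, since the tables were normalized apart.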

How the data were processed

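Per the labels' protocols, Trizol RNA of frozen lungs or of vesicles went into Illumina libraries. TopHat2, HTSeq and mm9 are named in the submitters' processing notes. Their versions, the strand setting and the annotation were "not given in the sources used here". For each source the authors deposited 1 table, with 6 value columns and 0 columns of no known sample. The deposited values were read as RPKM from the values themselves: multiplied by GENCODE M1 (mm9) exon length, they fall on whole multiples of 1 step per column. That step gives the depth. Reads of the 10 members used the annotated length for 6 and, for 4, the nearest length giving whole reads within 0.02 (wider in proportion at high reads), so they are approximate. Exact Poisson intervals cover counting error only.

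The label groups of a table were compared by limma-trend (limma 3.58.1, R 4.3.3) on log2(RPKM + 1), which understates changes of low genes. A gene entered the test if 2 or more libraries reached 1 RPKM. The procedure was tested on simulated data, with a spread between libraries smaller than that of the members, so that test does not speak for them. Members and lists were chosen with earlier results of these data known. Named genes are all members and, per list, the 4 with the highest level and the 2 with the smallest p. The 8 nearest profiles are also named. Cd5, Cd8b1, Chil3, Eomes, Prf1, Gzmb, Tnfrsf18, the Klrb1 relatives and other single macrophage and dendritic markers were chosen after their values were seen. 1 gene that the rule names is not reported here. Hbb-b1, Hbb-b2 and Siglec5 were not in the lung table under those names. Alternatives were other pseudocounts, filters, scaling, weights, covariates, a replicate block and leaving out each library. Proteins of the members were not used here.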

Additional observations from a re-analysis of the deposited data

Results flagged for a closer look

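In groups of 4 wild-type libraries, 1 library far from the other 3 was looked for in 74 sets of values of members, ratios and list genes. It was found in 7, or 9.46%. The nominal share of about 5% holds for independent sets. These sets share libraries and genes, so no excess over chance can be read from the count. The measure is the gap to the nearest library over the whole range. Wild-type lung 3 stood apart in the ratio of Cd4 to Cd8a (0.852), in Tyrobp (0.877) and in Chil3 (0.982). It was the high library in all 3. In wild-type vesicles 1 library was high for Lyst (0.898, replicate 2), Il7r (0.943, replicate 3), Srgn (1, replicate 3) and Areg (1, replicate 1). The Srgn and Areg values were 0 in the other 3 libraries, which fixes the measure at 1, and Srgn in replicate 3 was only 0.542 RPKM.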

How the results depend on the processing

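The count of members that passed was 0 under all 15 alternatives in lung, and so was that of pathway genes; in vesicles the pathway count was 0 under all 12. Without a filter on low values 1 lung gene passed, Gm17374, which is no member. At an unadjusted limma p under 0.05 the member count was 1 in the main fit. It was 0 with Ddx3y as covariate, with array weights, and without wild-type lung 1, 2 or 4. It was also 0 with a filter of 5 RPKM, under which Cd4 was not tested. It was 4 with the B cell score as a covariate. Cd3d and Cd4 kept their sign under every alternative run. Leaving out 1 lung at a time gave 0.02 to 0.59 for Cd3d, -0.14 to 0.97 for Cd3e, -0.0748 to 0.72 for Cd3g, -0.27 to 0.73 for Lck, 0.21 to 0.79 for Cd4, -0.47 to 0.47 for Cd8a, -0.61 to 0.44 for Nkg7, -0.51 to 0.45 for Gzma, -0.85 to 0.10 for Ncr1 and -0.56 to 0.30 for Klrb1c. The natural killer minus T cell difference between groups, -0.47, ran from -0.64 to -0.32 over 7 alternatives. These were a pseudocount of 0.1 and leaving out each lung in turn. The difference was not worked out with covariates or the replicate block, which moved natural killer members as given below. Cd8a, at 0.00, was -0.0166 with a pseudocount of 0.1, -0.0123 with median-ratio scaling and -0.0346 with array weights. With Ddx3y as a covariate Nkg7 was 0.20, Gzma 0.46 and Klrb1c 0.12. With the B cell score they were 0.13, 0.20 and 0.0528, and with the erythroid score Nkg7 was 0.0312 and Gzma 0.22. The B cell score also gave 0.62 for Cd3e, 0.48 for Cd3g, 0.42 for Lck and 0.58 for Cd4. The causes were not tested.

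With the replicate block Cd8a was -0.0501, Gzma -0.52, Ncr1 -0.73 and Cd4 0.66, and 0 members passed. Nothing in the labels says whether the replicate numbers pair the libraries. Deviations of mutant-labelled lung 1 and wild-type lung 1 correlated at -0.481 across genes, and those of the lungs numbered 2 at 0.0494. With 2 mutant-labelled lungs the deviations of one are the exact opposite of the other's, so these values cannot decide it. No paired analysis of members was possible in vesicles because none is listed there, and their other alternatives were not run for the same reason. At 80 reads the lowest value, Ncr1 in mutant-labelled lung 1, has the widest relative counting interval.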

Other observations

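The following T cell genes were chosen after their values were seen. The checkpoint receptor Ctla4 measured 0.775 and 1.04 RPKM in the mutant-labelled pair and 0.292, 0.316, 1.13 and 0.560 RPKM in wild-type lungs. The costimulator Icos stood at 0.953 and 1.28 against 0.540, 0.677, 1.29 and 0.842 RPKM. In both, wild-type lung 3 was the highest and wild-type lungs 1 and 2 the lowest. For Icos mutant-labelled lung 2 was nearly level with wild-type lung 3. Wild-type lungs 1 and 2 were also the lungs with Ddx3y, at 20.6 and 19.9 RPKM. Foxp3, the transcription factor of regulatory T cells, was nearly level, at 2.83 and 2.76 against 2.69, 2.77, 2.999 and 2.93 RPKM. By limma none of the 3 passed (adjusted p = 0.994 for each). The interleukin 7 receptor Il7r stood at 5.16 and 8.46 against 5.396, 4.80, 7.63 and 6.29 RPKM.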
